A study of Rattus norvegicus with 9 samples.

Results

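Prostaglandin synthesis and prostaglandin receptors were examined through 10 genes (Ptgs1, Ptgs2, Ptges, Ptgis, Ptgds, Hpgd, Ptger2, Ptger3, Ptger4 and Tbxa2r). A gene was a member if the accession of an array probe mapped to its symbol. All 10 had a probe, 12 probes in total, among 26905 genes and unnamed accessions on the array. Ptgs1 and Ptger3 had 2 probes each. RNA had been measured in whole prostates of male Sprague Dawley rats, purchased at 6 weeks of age, with Agilent one-colour arrays, which hybridise Cy3-labelled RNA to gene-specific probes. Sham rats had a sham operation, so that they kept their testes, and received injections of corn oil and, by gavage, water. BPH rats were castrated and injected with dihydrotestosterone (3 mg/kg daily for 4 weeks), a potent androgen, to induce benign prostatic hyperplasia (BPH), and received water by gavage. BPH+ghrelin rats were castrated and received the same androgen for 4 weeks together with oral ghrelin, a gut hormone that stimulates appetite and growth hormone release (20 nmol/kg daily for the last 2 weeks). This dose, route and duration are those of the study's methods, while its legends differ from them in dose, route or duration. Both BPH groups thus shared castration and dihydrotestosterone, and sham rats had neither. Each group had 3 arrays, made from 3 of 8 rats, and which 3 is not given in the sources used here.

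Prostaglandins are lipid messengers made from arachidonic acid, which phospholipases release from membranes. The cyclooxygenases Ptgs1 (largely constitutive) and Ptgs2 (inducible) turn it into the common precursor prostaglandin H2. Terminal synthases then set the product: Ptges makes prostaglandin E2, Ptgis prostacyclin and Ptgds prostaglandin D2. Hpgd oxidises prostaglandins and thereby ends their action. Ptger2 and Ptger4 are prostaglandin E2 receptors that raise cAMP, Ptger3 is a prostaglandin E2 receptor that mostly lowers it, and Tbxa2r is the thromboxane receptor, which contracts smooth muscle. The accessory glands of the male tract are a classical source of prostaglandins, and the prostate wall holds smooth muscle that responds to them.

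The RefSeq promoters of Hpgd, Ptger3, Ptgs2 and Ptgds are printed first, as the former pair of genes differed between groups by the test used here and the latter pair had the largest differences with ghrelin among the members tested. Each is given as the 250 bases before the annotated start, 5′ to 3′ on the strand of the gene, in RefSeq assembly GRCr8: Hpgd at chr16:39034832-39035081 (minus strand), Ptger3 at chr2:249264832-249265081 (plus strand), Ptgs2 at chr13:64713813-64714062 (plus strand) and Ptgds at chr3:28682979-28683228 (minus strand). Capitals mark matches, on either strand, to AGAACA (an arm of the androgen and glucocorticoid response element), CACGTG (the E-box), CGTCA (part of the cAMP response element), GGGCGG (the GC box) or TATAAA (the TATA box).
Hpgd: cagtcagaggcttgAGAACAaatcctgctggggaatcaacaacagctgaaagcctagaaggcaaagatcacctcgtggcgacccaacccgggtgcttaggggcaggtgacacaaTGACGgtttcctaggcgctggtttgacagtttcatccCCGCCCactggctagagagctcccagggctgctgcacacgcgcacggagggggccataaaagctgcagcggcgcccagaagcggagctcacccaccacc
Ptger3: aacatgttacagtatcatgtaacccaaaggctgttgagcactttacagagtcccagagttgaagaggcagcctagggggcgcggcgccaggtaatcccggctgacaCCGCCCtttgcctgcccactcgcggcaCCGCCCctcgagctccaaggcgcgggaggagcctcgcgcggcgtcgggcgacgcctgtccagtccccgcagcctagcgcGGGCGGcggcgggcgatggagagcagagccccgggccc
Ptgs2: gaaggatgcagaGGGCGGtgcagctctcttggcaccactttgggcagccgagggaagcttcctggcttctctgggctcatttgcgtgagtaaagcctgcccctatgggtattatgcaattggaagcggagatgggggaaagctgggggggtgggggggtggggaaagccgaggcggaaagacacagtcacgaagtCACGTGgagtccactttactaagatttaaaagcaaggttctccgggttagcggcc
Ptgds: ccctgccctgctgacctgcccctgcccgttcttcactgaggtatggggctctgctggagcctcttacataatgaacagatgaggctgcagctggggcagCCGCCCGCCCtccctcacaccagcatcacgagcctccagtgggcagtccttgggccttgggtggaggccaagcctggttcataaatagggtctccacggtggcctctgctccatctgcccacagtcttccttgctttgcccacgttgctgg

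The Hpgd window held AGAACA, starting 236 bases before the start, the reverse complement of CGTCA and that of the GC box. The first of these motifs was present in 17.5% of 33469 RefSeq promoter windows of the same length, the second in 18.2% and the GC box in 30.5%. Ptger3 held 3 GC boxes. Ptgs2 held CACGTG, starting 55 bases before the start, which was present in 5.59% of all windows, and a GC box. Ptgds held 2 overlapping matches to the reverse complement of the GC box. TATAAA was found in 12.9% of all windows and in none of these 4. Of the other members, 5 had an entry in the table. Ptges held AGAACA and a GC box, and Ptgs1, Ptger2, Ptger4 and Tbxa2r held no match to these letters. A match to letters does not show that a factor binds there.

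The arrays were read as log2 signals after quantile normalization, a scale that ranks groups within a probe but not probes against each other. The median raw signal lay between 40.9 on sham replicate 2 and 133 on BPH replicate 1, and saturation was seen at no spot. The word slide is used here for arrays that shared a recorded scan date. Their place on a physical slide is inferred from that date only. The arrays had been scanned as 3 slides: the 3 BPH arrays with BPH+ghrelin replicate 1, BPH+ghrelin replicates 2 and 3 with sham replicates 1 and 2, and sham replicate 3 alone, so that no slide held both BPH and sham. In every group, the same array lay between the other arrays at most of 17858 probes: sham replicate 3 at 77.1%, BPH replicate 2 at 74.8% and BPH+ghrelin replicate 2 at 72.4%. Among the 10 members it did so for 6, 6 and 7. The p values take the arrays as independent, and whether the arrays share material was not tested. Prostate markers were present, as Sbp (spermine-binding protein) had a mean log2 signal of 17.2 in sham, 17.3 in BPH and 17.3 in BPH+ghrelin. The summed signal of 6 seminal vesicle markers (log2 scale) was 16.5 to 17.3 in sham, 9.48 to 14.8 in BPH and 9.09 to 11.9 in BPH+ghrelin. Compared with sham, 4 of the 6 had a lower mean and 2 a higher one in each BPH group. Those called were all lower, 3 in BPH and 4 in BPH+ghrelin. Semg1, the brightest of them in sham, was not called in BPH. The summed signal of 9 epididymis and vas deferens markers was 9.10 to 9.36 in sham, 7.49 to 7.79 in BPH and 7.76 to 8.73 in BPH+ghrelin, with 3 to 5 of them above background on an array. Of the 4 tested against sham, only Teddm1a was called, lower in both BPH groups. Its mean was 8.48 in sham, 3.26 in BPH and 0.54 in BPH+ghrelin, the last not above background. Compared with sham, 3 of the 4 were lower and 1 higher in BPH, and 2 were lower and 2 higher in BPH+ghrelin. For 10 markers of the secretory epithelium, the summed signal in these groups was 18.24 to 18.28, 17.9 to 18.1 and 17.9 to 18.1. Of these markers, 1 was called higher and 2 lower in BPH than in sham. For 7 striated muscle markers the summed signal was 8.42 to 9.45, 8.18 to 9.00 and 8.26 to 8.32. The 1 called was Ckm, lower in BPH and in BPH+ghrelin than in sham. The part of these tissues in the differences from sham given below was not tested. In bulk tissue, fewer cells of a type and less RNA per cell cannot be told apart.

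**Figure D1:**
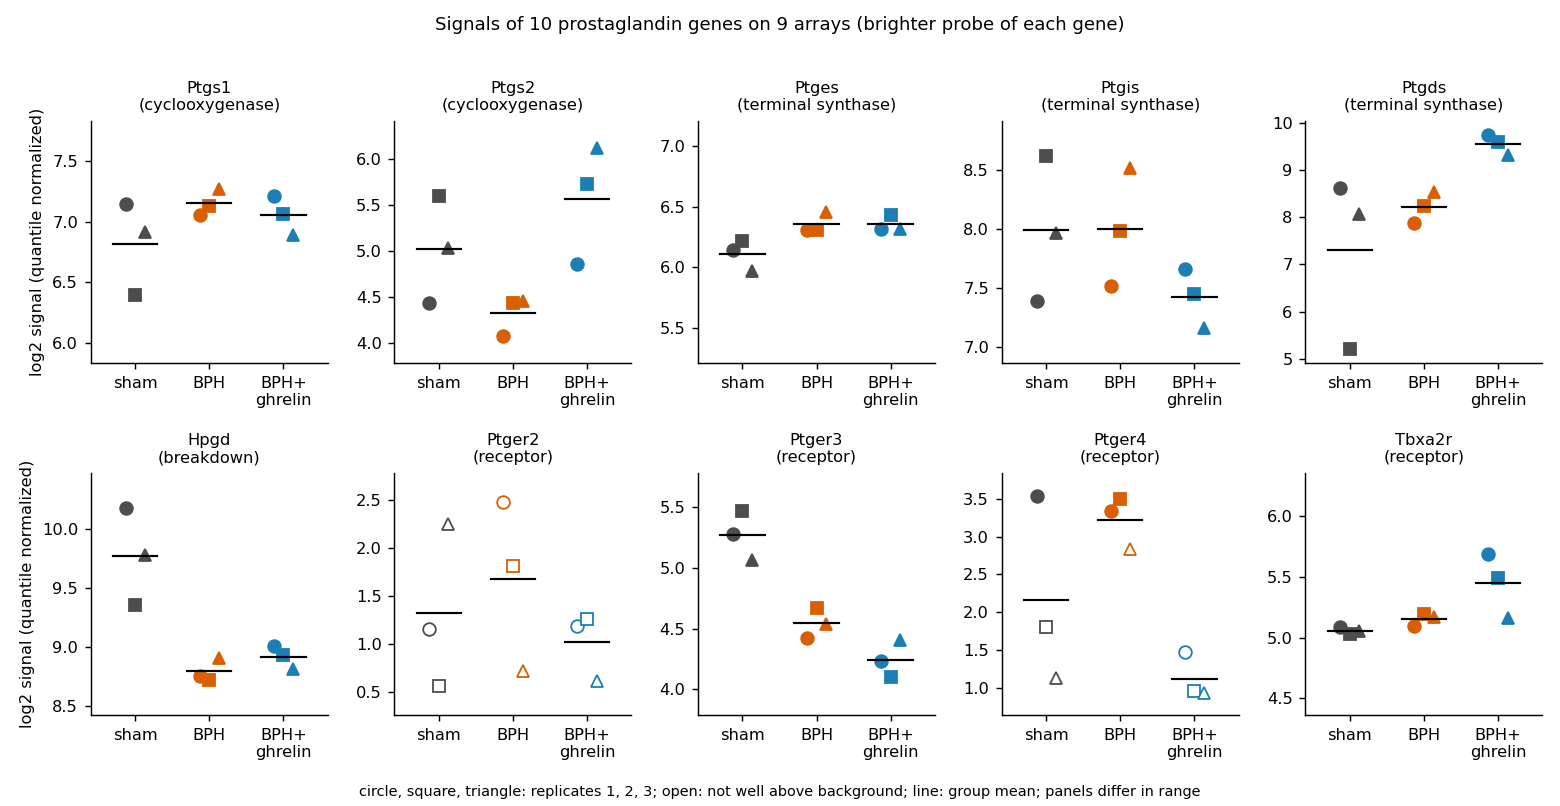
Quantile normalized log2 signal of the 10 members (brighter probe of each gene) on each of 9 arrays. Symbols are replicates, open symbols are not well above background, and lines are group means. The Hpgd and Ptger3 arrays of sham lie above all BPH and BPH+ghrelin arrays, and the 3 BPH+ghrelin arrays of Ptgs2 and Ptgds lie above all BPH arrays.

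Among the members, Hpgd and Ptger3 were lower in BPH than in sham, and both were also lower in BPH+ghrelin than in sham. No member passed the test between BPH+ghrelin and BPH, where the differences among the members tested were largest for Ptgds and Ptgs2, both higher with ghrelin. All p values are from limma and were adjusted by the Benjamini-Hochberg method over every gene tested, and a gene was called at an adjusted p under 0.05. In BPH against sham, 2 of 9 members tested were called, both lower, compared with 4.34% of 19552 genes (2.18% called lower). An unadjusted p under 0.05 was found for the same number, 2 of 9, compared with 26.5% of the genes. Between BPH+ghrelin and BPH, limma called 0 of 8 members tested, compared with 1.48% of 19749 genes, and 1 of 8 had an unadjusted p under 0.05, compared with 21.1% of the genes. Between BPH+ghrelin and sham, 2 of 8 members tested were called, both lower, compared with 6.29% of 19197 genes (3.3% called lower), and 4 of 8 had an unadjusted p under 0.05, compared with 23.7%. The median log2 difference of the members tested was 0.10 in BPH against sham, 0.06 in BPH+ghrelin against BPH and 0.24 in BPH+ghrelin against sham, and that of all genes tested was 0.04, 0.02 and 0.04. An exact permutation test was not used, because with 3 against 3 arrays it cannot go below 0.1.

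**Figure D2:**
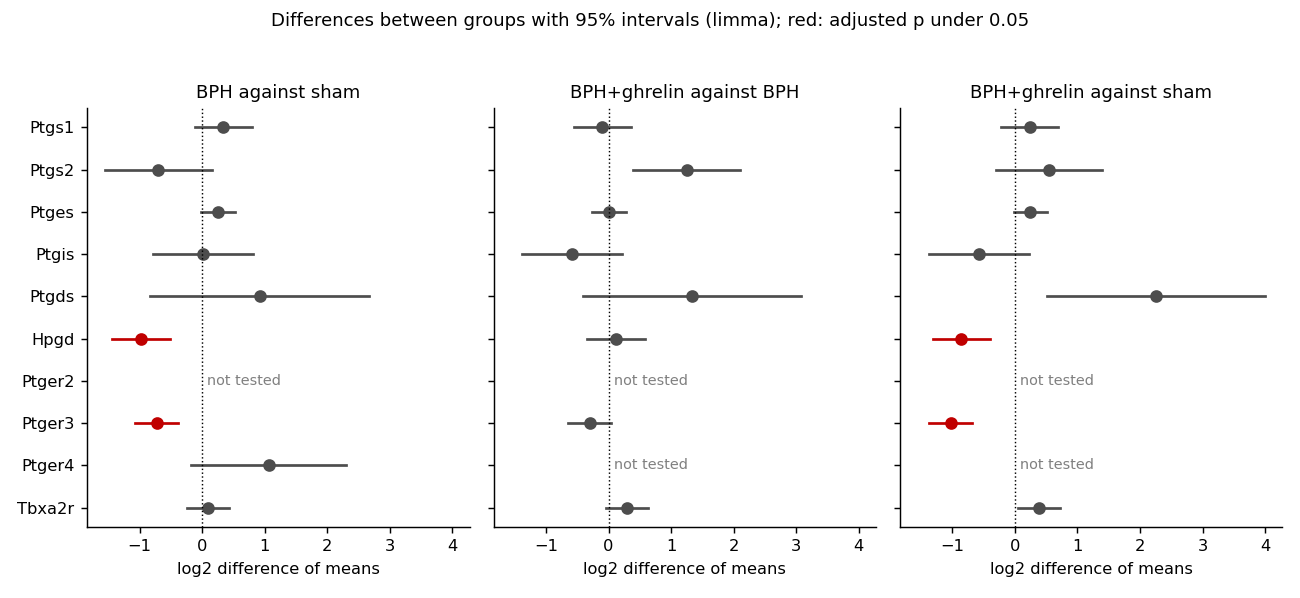
Difference of group means of log2 signal (points) with 95% intervals (lines) for the 10 members in the 3 comparisons, from limma. Red marks an adjusted p under 0.05, which Hpgd (-0.98 and -0.85) and Ptger3 (-0.73 and -1.03) had against sham, and members with too few arrays above background are shown as not tested.

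Hpgd, the enzyme that inactivates prostaglandins, was about 1.97-fold higher in sham than in BPH. Its log2 signal was 10.18, 9.35 and 9.78 on the sham arrays, 8.75, 8.72 and 8.91 on the BPH arrays, and 9.01, 8.93 and 8.81 on the BPH+ghrelin arrays. Every sham array was above every array of both BPH groups, and the BPH and BPH+ghrelin arrays overlapped. The log2 difference was -0.98 in BPH against sham (standard error 0.20, limma adjusted p 0.0386) and -0.85 in BPH+ghrelin against sham (standard error 0.20, adjusted p 0.0453). Between BPH+ghrelin and BPH it was 0.12, with a 95% interval from -0.34 to 0.58 (adjusted p 0.754).

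The Hpgd difference from sham kept its direction in all fits made, while its call depended on single arrays. The adjusted p in BPH against sham was 0.00848 without sham replicate 2 and 0.0275 without sham replicate 1, but 0.0801, 0.168 and 0.0879 when BPH replicate 1, 2 or 3 was left out and 0.129 when sham replicate 3 was. For BPH+ghrelin against sham, only leaving out sham replicate 2 kept it under 0.05 (0.00966), while it was 0.0521 to 0.149 without each of the other 5 arrays. On the slide shared by both groups, Hpgd was lower by -0.89 (log2) in BPH+ghrelin replicates 2 and 3 than in sham replicates 1 and 2. With slide as a block, the log2 difference between BPH and sham was -1.11 (limma adjusted p 0.692). This fit links BPH to sham only through the BPH+ghrelin arrays, of which only replicate 1 shared a slide with BPH. Sham replicate 3, alone on its slide, adds nothing to it. For BPH+ghrelin against BPH or sham, a slide block gives the within-slide difference, so that it is no separate check.

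Ptger3, the prostaglandin E2 receptor that lowers cAMP, followed the order sham, BPH, BPH+ghrelin. On its brighter probe, the log2 signal was 5.28, 5.47 and 5.06 on the sham arrays, 4.42, 4.67 and 4.54 on the BPH arrays and 4.23, 4.10 and 4.40 on the BPH+ghrelin arrays. None of the 3 groups overlapped with another on this probe. Compared with sham, the brighter probe differed by -0.73 (log2) in BPH (standard error 0.15, limma adjusted p 0.0389) and by -1.03 in BPH+ghrelin (standard error 0.15, adjusted p 0.00961). The step from BPH to BPH+ghrelin was -0.30, with an interval from -0.64 to 0.05 (adjusted p 0.294), and did not pass the test.

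Over all arrays, the second, dimmer probe of Ptger3 did not show this order. Its log2 signal was 3.44, 0.85 and 3.45 on the sham arrays, 3.06, 3.01 and 3.31 on the BPH arrays and 3.70, 2.20 and 2.69 on the BPH+ghrelin arrays. The groups overlapped. Sham replicate 2, the lowest array, and BPH+ghrelin replicates 2 and 3 were not well above background on this probe. The other sham arrays (3.44 and 3.45) lay above every BPH array, and BPH+ghrelin replicate 1 (3.70) lay above them. The log2 difference over all arrays was 0.55 (limma adjusted p 0.624) in BPH against sham and 0.28 (adjusted p 0.846) in BPH+ghrelin against sham. The intervals ran from -1.03 to 2.13 and from -1.29 to 1.86. These positive signs rest on the value of sham replicate 2, so that they do not show a direction opposite to that of the brighter probe. The call of Ptger3 thus rests on the brighter of its 2 probes. The dimmer one was well above background on only 2 of 3 sham and 1 of 3 BPH+ghrelin arrays, and cannot decide the direction. Which transcripts each probe detects is not given in the sources used here.

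On the brighter probe, leaving out 1 array in turn kept Ptger3 under an adjusted p of 0.05 in 5 of 6 fits of BPH+ghrelin against sham (0.0123 to 0.0387, and 0.063 without BPH+ghrelin replicate 2). In BPH against sham it stayed under 0.05 only without sham replicate 1 (0.0362), and was 0.0533 to 0.136 without the others. On the slide shared by BPH+ghrelin and sham, the log2 difference was -1.12. With slide as a block it was -0.81 in BPH (adjusted p 0.651) and -1.12 in BPH+ghrelin (adjusted p 0.0941) against sham. The latter rests on the same arrays as the within-slide value. With normexp background correction, whose offset compresses low signals, the difference from sham was -0.17 in BPH (adjusted p 0.179) and -0.28 in BPH+ghrelin (adjusted p 0.0533), and with the mean of both probes it was -0.09 (adjusted p 0.882) and -0.37 (adjusted p 0.546). That mean includes the dimmer probe, on which sham replicate 2 (0.85) was not well above background. Without the in-between array of each group, which leaves 2 arrays a group, the log2 differences of Hpgd and Ptger3 in BPH against sham were -0.94 and -0.89 (adjusted p 0.709 for both), and in BPH+ghrelin against sham they were -0.86 (adjusted p 0.713) and -1.06 (adjusted p 0.487).

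**Figure D3:**
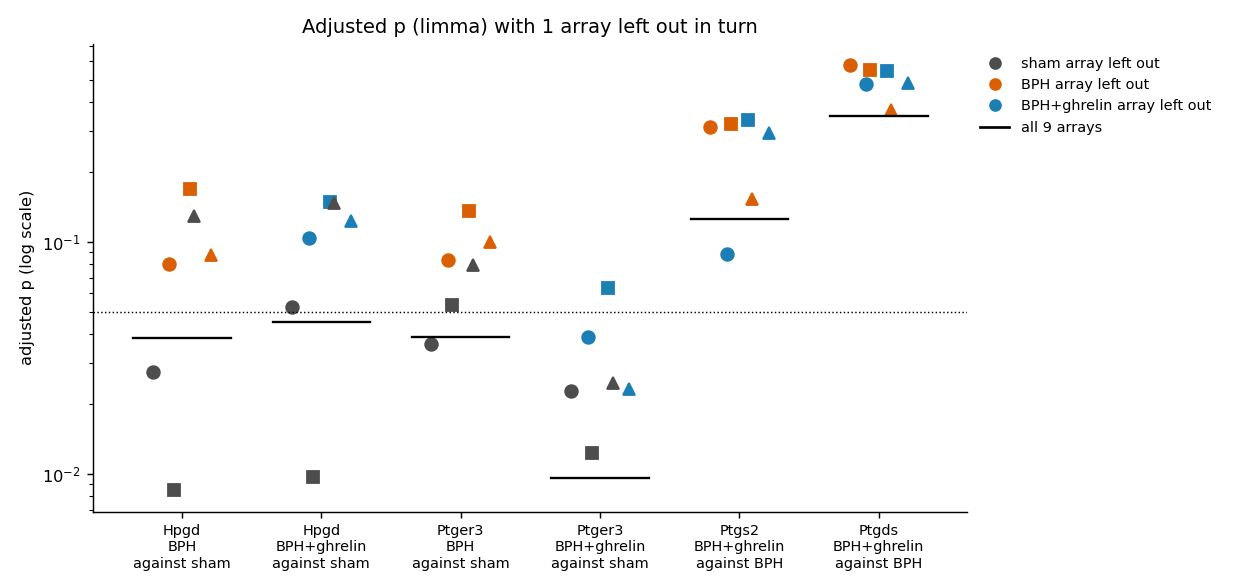
Adjusted p (limma, log axis) of Hpgd, Ptger3, Ptgs2 and Ptgds with all 9 arrays (black lines) and with 1 array of the compared groups left out in turn (coloured by group, shaped by replicate). The dotted line is 0.05. Points of Hpgd fall on both sides of it, 5 of 6 points of Ptger3 in BPH+ghrelin against sham stay below it, and no point of Ptgs2 or Ptgds in BPH+ghrelin against BPH is below it.

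Ptgs2, the inducible cyclooxygenase, had its lowest signals in BPH and its highest in BPH+ghrelin. The log2 signal was 4.44, 5.61 and 5.03 on the sham arrays, 4.08, 4.44 and 4.46 on the BPH arrays and 4.86, 5.73 and 6.12 on the BPH+ghrelin arrays. All BPH+ghrelin arrays were above all BPH arrays, while sham overlapped with both. Relative to BPH, the signal with ghrelin was 2.37-fold (log2 difference 1.25, standard error 0.37). The unadjusted p was 0.00985 and the adjusted p 0.125 (limma), so that this difference did not pass the test. Against sham, the log2 difference was -0.70 in BPH (adjusted p 0.263) and 0.55 in BPH+ghrelin (adjusted p 0.419). Both comparisons with BPH share the BPH arrays.

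On the slide that held BPH+ghrelin replicate 1 and the 3 BPH arrays, Ptgs2 differed by 0.54 (log2), less than in the comparison of all arrays. The difference was 0.97 to 1.61 with 1 array left out in turn, lowest without BPH+ghrelin replicate 3 and highest without BPH+ghrelin replicate 1. It was 0.34 with normexp background correction (adjusted p 0.233), and with slide as a block its adjusted p was 0.782. Macrophage markers, which mark a cell type that can express Ptgs2, had a summed log2 signal of 13.3 to 14.0 in BPH and 12.7 to 13.2 in BPH+ghrelin, with all 7 above background on every array. Of these, 6 had a lower mean in BPH+ghrelin than in BPH and 1, Csf1r, a higher one (0.32, adjusted p 0.300), and the macrophage receptor Mrc1 was the 1 called (-1.30, adjusted p 0.0340). Their part in the Ptgs2 values was not tested.

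Ptgs1, the constitutive cyclooxygenase, did not pass the test in any comparison. On its brighter probe, the log2 signal was 7.14, 6.39 and 6.92 on the sham arrays, 7.06, 7.13 and 7.27 on the BPH arrays and 7.21, 7.06 and 6.89 on the BPH+ghrelin arrays. The groups overlapped, with sham replicate 2 the lowest. In log2 units, BPH differed from sham by 0.34 (interval -0.12 to 0.79, adjusted p 0.308), BPH+ghrelin from BPH by -0.10 (interval -0.56 to 0.36) and BPH+ghrelin from sham by 0.24 (interval -0.22 to 0.69). The dimmer probe was well above background on 0 of 3 sham, 3 of 3 BPH and 2 of 3 BPH+ghrelin arrays, with log2 signals of 1.99 to 3.36 in all.

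Ptgds, the lipocalin-type synthase of prostaglandin D2, was highest in BPH+ghrelin. The log2 signal was 8.62, 5.21 and 8.06 on the sham arrays, 7.89, 8.24 and 8.53 on the BPH arrays and 9.74, 9.60 and 9.32 on the BPH+ghrelin arrays. All BPH+ghrelin arrays were above all others, and sham replicate 2 was far below the rest. The signal in BPH+ghrelin was 2.53-fold that in BPH (log2 difference 1.34, standard error 0.76, limma adjusted p 0.347) and 4.78-fold that in sham (log2 difference 2.26, standard error 0.76, adjusted p 0.118). Neither passed the test, in which all 3 groups share an estimate of the spread that includes sham replicate 2.

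Without sham replicate 2, Ptgds in BPH+ghrelin against sham was 1.21 on the log2 scale (adjusted p 0.0287), without sham replicate 1 it was 2.93 (adjusted p 0.0483), and the other 4 fits with 1 array left out did not pass the test. In BPH against sham, Ptgds without sham replicate 2 changed from 0.92 to -0.12. When only the 6 arrays of BPH+ghrelin and BPH were normalized and fitted, the log2 difference of 1.34 had an adjusted p of 0.0242. This fit called 2106 of 19749 genes (10.7%), against 1.48% with all 9 arrays, and Ptgds was the 1 member it called of 8 tested, a share near that of all genes. On the slide shared with the BPH arrays, BPH+ghrelin replicate 1 was higher by 1.52, and on the slide shared with sham replicates 1 and 2 the difference was 2.55. Mast cells, which make prostaglandin D2 mainly through the other synthase, Hpgds, had 7 markers with a summed log2 signal of 10.8 to 10.96 in sham, 10.1 to 10.95 in BPH and 10.8 to 11.5 in BPH+ghrelin. Of these, 6 to 7 were above background on each array and none passed the test. In BPH+ghrelin, 6 had a higher mean than in BPH and 1 a lower one (median log2 difference of the 7, 0.65). All 7 had a higher mean than in sham (median 0.36). Hpgds itself differed by -0.03 (log2) in BPH+ghrelin against BPH (limma adjusted p 0.964). Against sham, it differed by 0.90 in BPH (adjusted p 0.0698) and by 0.88 in BPH+ghrelin (adjusted p 0.0675), and neither passed the test. The part of mast cells in the Ptgds values was not tested.

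Ptges, the inducible synthase of prostaglandin E2, was slightly higher in both BPH groups than in sham. The log2 signal was 6.14, 6.21 and 5.96 on the sham arrays, 6.30, 6.31 and 6.45 on the BPH arrays and 6.32, 6.43 and 6.32 on the BPH+ghrelin arrays. All sham arrays were below all others, but the shift was small, with a log2 difference of 0.25 in both comparisons with sham (adjusted p 0.219 in BPH and 0.241 in BPH+ghrelin). Between BPH+ghrelin and BPH it was 0.00, with an interval from -0.27 to 0.27, which is the narrowest of the members in this comparison.

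Ptgis, the prostacyclin synthase of vessels and stroma, was lowest in BPH+ghrelin without passing the test. The log2 signal was 7.39, 8.62 and 7.96 on the sham arrays, 7.51, 7.98 and 8.51 on the BPH arrays and 7.66, 7.44 and 7.16 on the BPH+ghrelin arrays. The groups overlapped, and the log2 difference was -0.58 in BPH+ghrelin against BPH and -0.57 against sham (adjusted p 0.369 for both), and 0.01 in BPH against sham (interval -0.79 to 0.82). With 1 array left out in turn, the first was -0.83 to -0.33 and the second -0.87 to -0.25, and neither was called. Of 7 endothelial markers, 5 were above background on every BPH+ghrelin array, with Tek and Tie1 on none of them. Their summed log2 signal was 10.2 to 10.5 in sham, 9.76 to 10.4 in BPH and 9.65 to 9.86 in BPH+ghrelin. Pecam1 was lower in BPH+ghrelin than in sham (-0.62, adjusted p 0.0434). Of 7 fibroblast markers, 6 had a lower mean in BPH+ghrelin than in BPH and 1 a higher one. Compared with sham, 2 were lower and 5 higher. Lum was the 1 called, at -1.65 against BPH (adjusted p 0.0240) and -1.42 against sham (adjusted p 0.0145). The part of endothelial cells and fibroblasts in the Ptgis values was not tested.

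The receptors that raise cAMP lay close to the background. Ptger4 was well above it on 1 of 3 sham, 2 of 3 BPH and 0 of 3 BPH+ghrelin arrays, with log2 signals of 3.54, 1.81 and 1.14 in sham, 3.34, 3.49 and 2.84 in BPH and 1.47, 0.96 and 0.94 in BPH+ghrelin. All BPH arrays were above all BPH+ghrelin arrays, while sham overlapped with both. With the BPH+ghrelin arrays set at the background limit, Ptger4 was 1.43-fold higher in BPH than in BPH+ghrelin. This is no strict bound, as BPH replicate 3 was not well above background either. It was not tested, since fewer than 3 of these 6 arrays were above background. In BPH against sham the log2 difference was 1.06 (interval -0.18 to 2.31, adjusted p 0.247), and did not pass the test. It ranged from 0.55 without sham replicate 3 to 1.75 without sham replicate 1, the only fit in which it was called (adjusted p 0.0183). It was 0.44 in the deposited matrix, 0.0948 with normexp background correction and 0.0268 with slide as a block (adjusted p 0.997). Ptger2 was not well above background on any of the 9 arrays (log2 signals of 0.56 to 2.48), and no comparison was made.

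Tbxa2r, the thromboxane receptor, was highest in BPH+ghrelin. The log2 signal was 5.09, 5.03 and 5.05 on the sham arrays, 5.09, 5.20 and 5.17 on the BPH arrays and 5.69, 5.49 and 5.16 on the BPH+ghrelin arrays. All BPH+ghrelin arrays were above the sham arrays, but BPH+ghrelin replicate 3 lay among the BPH arrays. With ghrelin, the log2 difference was 0.39 against sham (unadjusted p 0.0273, adjusted p 0.151), 0.29 against BPH (adjusted p 0.293) and 0.10 in BPH against sham (adjusted p 0.690). Platelets and smooth muscle carry this receptor. The summed log2 signal of 4 platelet markers was 7.63 to 7.74 in sham and 7.66 to 7.97 in BPH+ghrelin, with the defining Ppbp above background on no array. None of the 3 platelet markers tested was called. In BPH+ghrelin against BPH, Gp1bb differed by 0.65 (adjusted p 0.0949), Pf4 by -0.33 (adjusted p 0.221) and Gp9 by -0.008 (adjusted p 0.989). Of 9 smooth muscle markers tested, 8 had a lower mean in BPH+ghrelin than in BPH (median log2 difference of the 9, -0.49) and 8 a lower one than in sham (median -0.37). Myh11, a smooth muscle myosin, was the 1 called, at -0.96 against BPH (adjusted p 0.0157) and -1.07 against sham (adjusted p 0.00245). The summed log2 signal of these 9, to which the brightest, Mylk, contributed most, was 15.4 to 15.9 in sham, 15.3 to 16.1 in BPH and 15.5 to 15.6 in BPH+ghrelin. The part of either cell type in the Tbxa2r values was not tested.

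Counted by overlap of arrays, the 3 arrays of 1 group were all above or all below those of the other for 4 of 9 members in BPH against sham, 3 of 8 in BPH+ghrelin against BPH and 5 of 8 in BPH+ghrelin against sham. For all genes tested, this share was 31.3%, 39.2% and 30.4%. A difference of at least 2-fold was found for 1 of 9 (Ptger4), 2 of 8 (Ptgs2 and Ptgds) and 2 of 8 members (Ptgds and Ptger3), compared with 8.16%, 6.11% and 7.41% of all genes. Ptger4 was well above background on only 1 of 3 sham and 2 of 3 BPH arrays, so that its fold is not established.

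Other genes of the pathway were read from a list of 25 genes, of which 22 were on the array and 19 were tested in each comparison. In BPH against sham, 1 of 19 was called (Cbr1, lower), compared with 4.34% of all genes. With ghrelin against BPH, 0 of 19 were called by limma (1.48% of all genes) and 1 had an unadjusted p under 0.05 (Pla2g4a, adjusted p 0.142), compared with 21.1% of all genes. Against sham, 2 of 19 were called with ghrelin (Cbr1 and Pla2g4a, both lower; 6.29% of all genes), and 6 had an unadjusted p under 0.05 (23.7% of all genes). The median log2 difference of the 19 was -0.07, -0.06 and -0.14 in these comparisons.

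Cbr1, a carbonyl reductase that converts prostaglandin E2 to F2α, was the pathway gene with the largest called difference. Its log2 signal was 14.21, 14.82 and 14.52 on the sham arrays, 12.66, 12.68 and 12.66 on the BPH arrays and 13.72, 13.33 and 12.72 on the BPH+ghrelin arrays. Sham was above both other groups, and all BPH+ghrelin arrays were above all BPH arrays. Cbr1 was 3.60-fold higher in sham than in BPH (log2 difference of BPH against sham -1.85, adjusted p 0.0110) and 2.40-fold higher in sham than in BPH+ghrelin (-1.26, adjusted p 0.0300). The difference of 0.59 between BPH+ghrelin and BPH did not pass the test (adjusted p 0.240). Hpgd had the same order of group means (9.77, 8.79 and 8.92), without a difference beyond the error between the last pair.

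Pla2g4a, the cytosolic phospholipase that releases arachidonic acid, was lower in BPH+ghrelin than in sham. Its log2 signal was 6.87, 6.93 and 6.86 in sham, 6.70, 6.60 and 6.66 in BPH and 6.21, 6.24 and 6.44 in BPH+ghrelin. None of the groups overlapped. The log2 difference was -0.59 in BPH+ghrelin against sham (adjusted p 0.0247), -0.35 in BPH+ghrelin against BPH and -0.23 in BPH against sham (adjusted p 0.223). Pla2g2a, a secreted phospholipase, was 7.13 on sham replicate 2 and 3.76 to 5.73 on the other 8 arrays. All its BPH+ghrelin arrays were below the sham arrays, with a log2 difference of -1.87 that did not pass the test (adjusted p 0.117). With 1 array left out in turn, this difference was -2.57 to -1.18 and was called in 1 of 6 fits (adjusted p 0.0266).

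**Figure D4:**
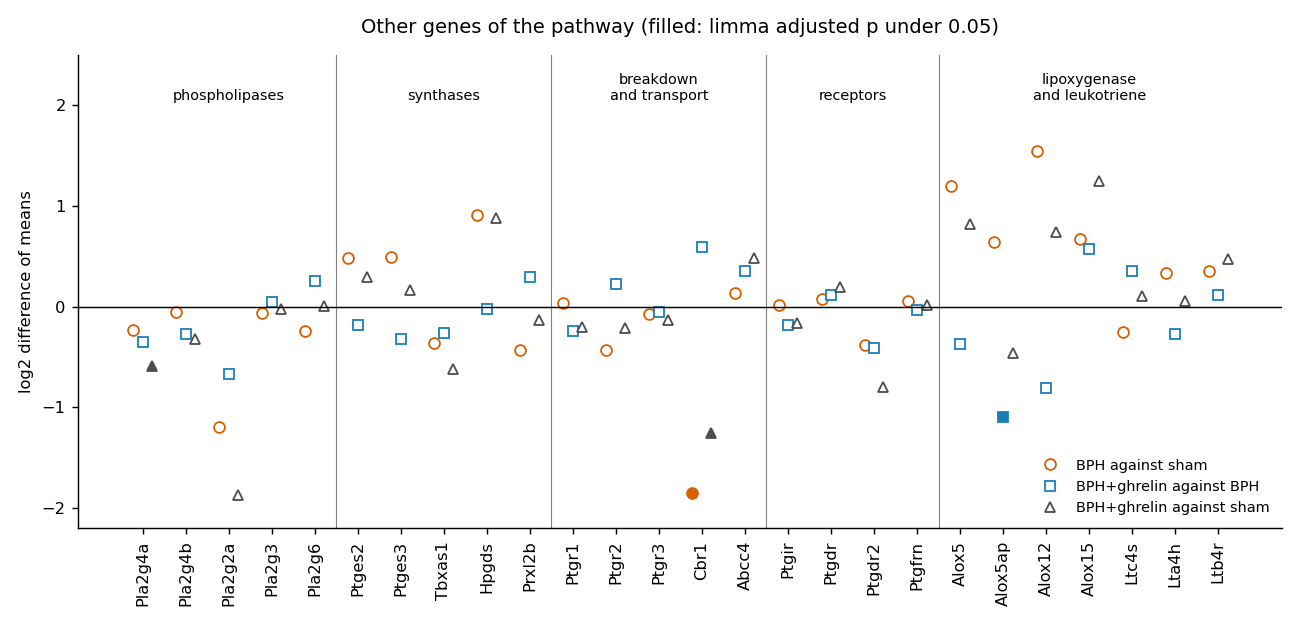
Difference of group means of log2 signal for the other pathway genes and for genes of the lipoxygenase and leukotriene branch, in the 3 comparisons. Filled symbols have an adjusted p under 0.05 (limma), namely Cbr1 (-1.85 and -1.26) and Pla2g4a (-0.59) against sham and Alox5ap (-1.10) in BPH+ghrelin against BPH.

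The lipoxygenase and leukotriene branch uses the same arachidonic acid. Of its 10 genes listed, 7 were tested, and 0, 1 and 0 were called in BPH against sham, BPH+ghrelin against BPH and BPH+ghrelin against sham, while 4, 2 and 2 had an unadjusted p under 0.05 (limma). Of all genes, 4.34%, 1.48% and 6.29% were called and 26.5%, 21.1% and 23.7% had such a p. Alox5ap, which presents arachidonic acid to 5-lipoxygenase, had log2 signals of 4.97, 4.70 and 4.78 in sham, 5.51, 5.35 and 5.52 in BPH and 4.13, 4.36 and 4.59 in BPH+ghrelin. None of the groups overlapped, with BPH the highest and BPH+ghrelin the lowest. Its signal in BPH was 2.14-fold that with ghrelin (log2 difference of BPH+ghrelin against BPH -1.10, adjusted p 0.0240). Alox12 and Alox5, 2 lipoxygenases, were higher on all BPH than on all sham arrays. They differed by 1.55 (log2) for Alox12 (adjusted p 0.0534) and by 1.19 for Alox5 (adjusted p 0.125), so that neither passed the test. Alox12 was called with replicate number as a block (adjusted p 0.0411), in the deposited matrix (0.0474) and without sham replicate 1 (0.0246). With normexp the differences were 0.32 for Alox12 and 0.21 for Alox5, and with slide as a block 0.20 (adjusted p 0.992) and 0.13 (adjusted p 0.995). Both probes were dim, and well above background on 2 of 3 sham arrays. In BPH+ghrelin against BPH, 6 of 7 macrophage and 3 of 4 lymphocyte markers tested had a lower mean with ghrelin. Mrc1 and Ptprc (CD45) were called (limma adjusted p 0.0340 and 0.0370). Mast cell markers went the other way, as 6 of 7 had a higher mean with ghrelin and 1 a lower one. None of these 7 was called. The part of leukocytes was not tested.

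The call of Alox5ap depended on single arrays. With 1 array left out in turn, it was kept in 1 of 6 fits (adjusted p 0.0431 to 0.146), while the log2 difference stayed at -1.21 to -0.99. These 6 fits called 3 to 396 of all 19749 genes, against 293 with all 9 arrays. Cbr1 kept its call in 4 of 6 fits in BPH against sham (adjusted p 0.0134 to 0.0627) and in 3 of 6 in BPH+ghrelin against sham (0.0294 to 0.112), and Pla2g4a in 3 of 6 (0.0273 to 0.127). With slide as a block none of them was called, with log2 differences of -1.33 for Alox5ap (adjusted p 0.173), -2.55 and -1.49 for Cbr1 (0.298 and 0.120) and -0.56 for Pla2g4a (0.240). With normexp Alox5ap was -0.35 (adjusted p 0.0337) and Pla2g4a -0.33 (0.0213).

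Over the 9 arrays, the genes with a symbol whose log2 signals were most like those of Ptgs2 were Xcl1 (Pearson r 0.983), Tox (0.980) and Tmem241 (0.977). For Ptger3, the member with the smallest adjusted p, they were Vom2r34 (0.974), Cxcl1 (0.963) and Abcg4 (0.961). They were the highest of 11766 genes searched, and the 9 arrays share groups and slides, so that these values describe the likeness only.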

How the data were processed

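RNA of rat prostates had been measured on 9 one-colour arrays. The intensities deposited by the authors are scanner signals after background subtraction (Agilent Feature Extraction 11.0.1.1 per the file headers), not normalized between arrays. The deposited log2 matrix, which the authors quantile normalized, was used as an alternative (every column has a median of 5.26 and correlated best with its own array). Outlier spots were removed, spots of a probe averaged, and log2 signals of 30356 probes quantile normalized over 9 arrays. Accessions were matched to RefSeq (GRCr8) for names (17998 probes, 15163 symbols), and the headers use rn4. Genes entered a comparison when 3 or more of its 6 arrays had them well above background, by their brightest such probe. limma 3.58.1 (R 4.3.3) was fitted to all 3 groups. The background limit is the lowest signal above background on each array. Nothing states separate litters or days, and the number of arrays limits the precision.

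The members and lists were chosen with earlier results of these data known. Named genes were all members, other pathway or leukotriene genes that were called or at least 2-fold different without overlap, and the 3 genes most like Ptgs2 and the member with the smallest adjusted p. Hpgds, outside this rule, was added after the other values were seen, as the synthase named with mast cells. Marker genes are given by list; single ones named were picked after their values were seen. Alternatives were 75th percentile scaling, normexp (offset 50, on the median signal, as no mean signal is given), no filter, a filter on all 6 arrays, a fit of 6 arrays, means of probes, replicate or slide as a block, the deposited matrix, trend and robust eBayes, and leaving out arrays. The dimmer probes and the fit without the in-between arrays were added after seeing the data.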

Additional observations from a re-analysis of the deposited data

How the results depend on the processing

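The number of members called changed with the processing. In BPH against sham (2 members called), it was 1 with normexp, the mean of the probes, trend and robust eBayes or the 2-fold criterion, and 0 without a filter on dim probes, with 6 arrays only, with slide as a block or without the in-between array of each group; with 1 array left out it was 0 to 3. In BPH+ghrelin against BPH (0 called), it was 1 of 8 with 6 arrays only (Ptgds, in a fit that called 10.7% of all genes) or by unadjusted p (Ptgs2) and 2 by the 2-fold criterion. In BPH+ghrelin against sham (2 called), it was 1 with normexp, no filter, 6 arrays only or the mean of the probes, 0 with slide as a block or without the in-between arrays, and 4 by unadjusted p; with 1 array left out it was 0 to 3. For the other pathway genes, BPH against sham (1 called) gave 0 with slide as a block or without the in-between arrays, 4 by unadjusted p, 2 by 2-fold and 0 to 3 with 1 array left out. BPH+ghrelin against BPH (0 called) gave 1 by unadjusted p. BPH+ghrelin against sham (2 called) gave 1 with 75th percentile scaling, 0 with 6 arrays only, slide as a block or without the in-between arrays, 6 by unadjusted p and 0 to 4 with 1 array left out. Without the in-between arrays, which leaves 2 arrays a group, 3, 0 and 2 of all genes were called in the 3 comparisons. The number of all genes called moved as well. Between BPH and sham (849 of 19552) it was 2 with slide as a block, 181 with 6 arrays only, and 119 to 3082 with 1 array left out, the highest without sham replicate 1, the fit with 3 members called. In BPH+ghrelin against sham (1207 of 19197) it was 85 with slide as a block, 903 with 6 arrays only, and 225 to 1925 with 1 array left out, the highest without sham replicate 2, again the fit with 3 members called. The cause of these changes was not tested. The fits with slide as a block rest on few arrays, as BPH and sham shared no slide. Normexp, whose offset compresses low signals, also lowered differences that did not pass the test, such as Tbxa2r (0.11) and Pla2g2a (-0.62) in BPH+ghrelin against sham.

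Deviations of arrays with the same replicate number correlated at -0.09 to 0.14, so that the numbers do not pair the rats. With replicate number as a block, 0 members were called in BPH against sham and 1 (Ptger3) in BPH+ghrelin against sham, and 0 of the other pathway genes in the latter.

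Of 429 alternative values of the members, 371 kept direction and side of the threshold, 37 lost and 4 gained a call, and 17 changed sign. These were, in BPH against sham, Ptgs2 with slide as a block (0.37), Ptgis with normexp (-0.00093), slide (-0.35) or 1 array left out (-0.29 to 0.33), Ptgds without sham replicate 2 (-0.12, and up to 1.59 without sham replicate 1), Ptger3 on its dimmer probe (0.55), and Tbxa2r with 75th percentile scaling (-7.78e-06) or slide (-0.26). In BPH+ghrelin against BPH they were Ptgs1 with slide (0.0555) and Ptges with 75th percentile scaling (-0.0947), slide (-0.0373), without the in-between arrays (-0.0621) or 1 array left out (-0.039 to 0.0495), and in BPH+ghrelin against sham Ptger3 on its dimmer probe (0.28). In both comparisons, the sign of the dimmer Ptger3 probe rests on sham replicate 2, which was not well above background, so that it shows no change of direction. Alox5 in BPH+ghrelin against BPH was 0.34 with slide, 0.0395 without the in-between arrays and -0.75 to 0.0224 with 1 array left out (highest without BPH+ghrelin replicate 2).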
